A study of Homo sapiens with 2 samples.

Results

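The axon guidance genes of a human hepatocellular carcinoma cell line were followed across overexpression of the microRNA miR-130b. They comprise the ephrins and Eph receptors, the semaphorins with their plexin and neuropilin receptors, the slits with their ROBO receptors, and the netrins with DCC, NEO1 and the UNC5 receptors. Members were genes of these families that a probe set with a single gene symbol named on the array, chosen by symbol and not by any measured value. Of the netrins, only NTN1 and NTN4 were eligible. The choice gave 73 symbols carried by 178 probe sets, out of 19775 symbols in all. Of the 73, 33 encode ligands and 34 encode receptors. The other 6 entered through their name alone: UNC50, which encodes a Golgi protein, UNC5CL, which encodes an UNC5-like protein, and the antisense RNAs EPHA1-AS1, EPHA2-AS1, EPHA5-AS1 and UNC5B-AS1.

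Both cultures were PLC8024 cells sorted by flow cytometry as CD133-, the fraction without the surface protein CD133. One received an empty vector and the other miR-130b. The treatment protocol gives lentiviral transduction for both, whereas the miR-130b culture is described as a transfection in its source label. Each condition was hybridised to 1 array, so no difference below has a replicate error or a test, and the vector cannot be told apart from anything else that separated the 2 cultures. The mRNA of PROM1, the gene of CD133, had a log2 value of 9.19 with the empty vector and 6.07 with miR-130b. Both lie above the expression floor of 4.88 defined below, although the cells are labelled CD133-. Of the listed liver and hepatocellular carcinoma markers, 9 of 9 on the array were above that floor, among them AFP at 13.5 and 13.0. Among 8 endothelial, 9 neural, 9 stromal and 6 leukocyte markers on the array, 4, 5, 5 and 3 were above it. By the same rule 13260 of all 19775 symbols were above it, so these counts do not show that other cell types were present.

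Guidance cues steer growing axons, and the same families control the attachment, movement and repulsion of many other cells. Ephrins sit on the surface of one cell and activate Eph receptor tyrosine kinases on its neighbour. Semaphorins, secreted or membrane-bound, act through plexins, with neuropilins as co-receptors for the secreted class. Slits are secreted proteins that repel cells through ROBO receptors, and netrins attract through DCC and NEO1 or repel through the UNC5 receptors, which can also trigger cell death when netrin is absent. MicroRNAs such as miR-130b bind mainly through their seed, the bases numbered 2 to 8 from the 5′ end, and lower the level of transcripts that pair with it. The mature products of MIR130B are shown to identify the treatment, with the seed in capitals, as RefSeq gives them on GRCh38.p14 (chr22:21653316-21653336 and chr22:21653354-21653375, plus strand). The labels do not say which arm was meant, and no match to target transcripts was sought.
hsa-miR-130b-5p: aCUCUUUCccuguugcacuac
hsa-miR-130b-3p: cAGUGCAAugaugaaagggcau

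Values are RMA expression values on the log2 scale, in which a step of 1 is a doubling, and each difference is miR-130b minus empty vector. A probe set was taken as measured if at least 1 of the arrays reached a floor of 4.88, the median over all probe sets that are not controls. The measured probe set of highest mean, called the brightest here, stands for its gene. By this rule 48 of the 73 members were measured, among them 25 ligands, 20 receptors and 3 of the genes that share only the name. Signal differs between probe sets for reasons other than transcript number, so levels are compared between arrays and not between genes. The only measure of spread is technical: where a gene had several measured probe sets, their differences scattered with a pooled SD of 0.202 over 6047 genes and of 0.305 over the 20 such members. It does not measure error between arrays or cultures, so a difference inside it is not shown to be absent.

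Most guidance genes differed little between the arrays. SLIT2 alone was at least 1.5-fold lower with miR-130b, 1 of 48 measured members or 2.08%, against 2.68% of all 13260 measured genes. No measured member was at least 1.5-fold higher, against 0.294% of all measured genes. A share of members this close to the background is not a result about the family. Across ligands and receptors together, 21 had a difference above 0, 23 below 0 and 1 of exactly 0. Of all 13260 measured genes, 7440 were above 0, 5556 below 0 and 264 at exactly 0.

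The differences of ligands and receptors overlapped over most of their range. The median difference was 0.03 for the 25 ligands and -0.07 for the 20 receptors, 0.10 apart, beside 0.03 for all measured genes. Binomial 95% intervals of these medians, which treat genes as independent, were -0.04 to 0.12 for ligands and -0.20 to 0.12 for receptors. They describe scatter between genes and hold no replicate error, so no conclusion is drawn from them. Of the ligands, 13 had a positive and 11 a negative difference, and SEMA3B had the same value in both arrays. Of the receptors, 8 were positive and 12 negative. Over all measured genes these counts were 7440 and 5556, and nothing is read from the signs of so few members. The sign of the receptor median was not stable: it was 0.02 over the 15 receptors left without probe sets ending in _x_at or _s_at, which can bind several transcripts. Differences smaller than the pooled SD of 0.202 made up 18 of 25 ligands and 10 of 20 receptors. The same share was not computed over all measured genes, so nothing is read from these counts. Quartiles of the differences were -0.05 and 0.13 for ligands, -0.21 and 0.13 for receptors, and -0.09 and 0.14 for all measured genes.

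**Figure D1:**
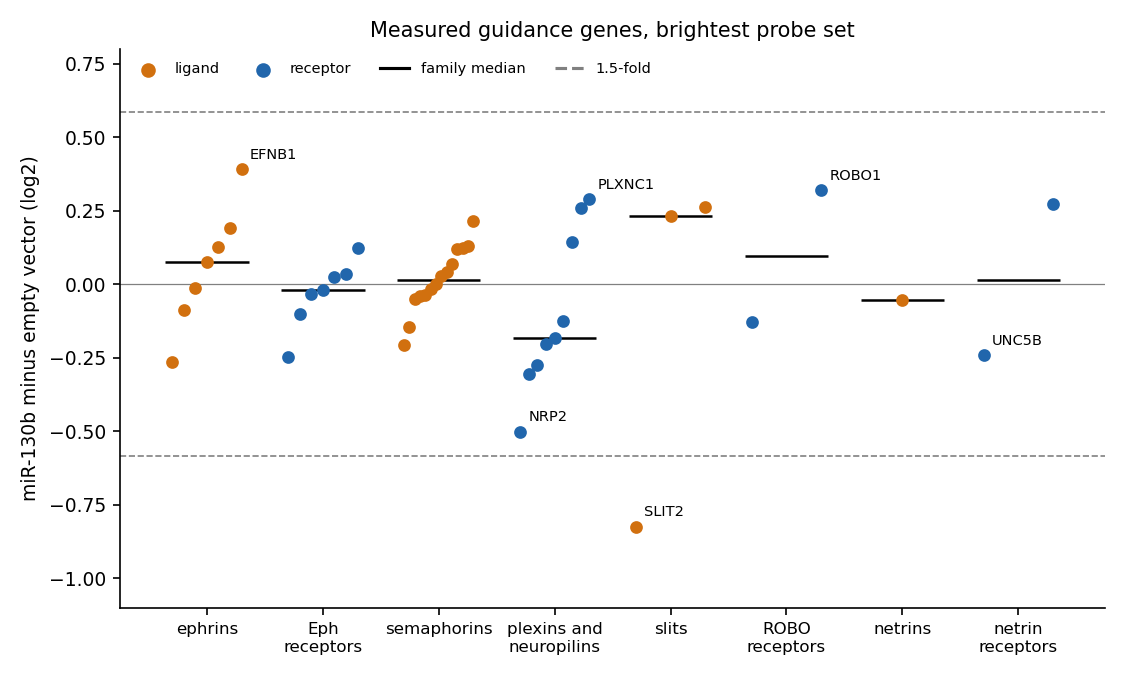
Difference of each measured ligand (orange) and receptor (blue) gene, as the miR-130b value less the empty vector value (log2), by family, with the family median as a bar and 1.5-fold as dashed lines. SLIT2 at -0.82 is the only point beyond a dashed line, and NRP2 at -0.50 is the lowest receptor.

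SLIT2, a secreted repellent and the ligand of ROBO1, showed the lowest difference of any member. Its probe set 230130_at read 5.89 with the empty vector and 3.92 with miR-130b, a difference of -1.97 that ends below the floor, so the size of the fold is not resolved. Probe set 209897_s_at, the one that represents the gene, read 5.88 and 5.06, which is 1.77-fold lower. The remaining one, 228850_s_at, lay below the floor in both arrays at 3.91 and 3.61. All SLIT2 probe sets read lower with miR-130b, by amounts that differed by more than the pooled SD. Only 209897_s_at was above the floor in both arrays, so nothing is read from their shared sign. The related ligands SLIT1 and SLIT3 had the opposite sign, with SLIT1 at 5.31 and 5.57 and SLIT3 at 5.43 and 5.66. ROBO1, their receptor, had 1 probe set, which read 11.1 and 11.4, a difference of 0.32, in the top 2% of probe sets of either array. ROBO4, an endothelial member, differed by -0.13, and ROBO2 and ROBO3 were below the floor in both arrays.

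UNC5B, a netrin receptor, was lower in all 3 of its probe sets, but unequally. Its brightest, 41856_at, read 7.39 and 7.15, a difference of -0.24. Probe set 226899_at read 6.83 and 5.68, which is 2.21-fold lower, and 213100_at read 6.10 and 5.72, a difference of -0.39. With the mean of its probe sets UNC5B differed by -0.59, just past 1.5-fold, and 2 of 48 members were then lower, SLIT2 and UNC5B, against 2.6% of all measured genes. Of the other netrin receptors, NEO1, which also binds repulsive guidance molecules, read 7.85 and 8.12 and its other measured probe set 7.43 and 7.52, so both were slightly higher with miR-130b. DCC, UNC5A, UNC5C and UNC5D were below the floor in both arrays. Netrin 1 (NTN1) read 5.20 and 5.14, and NTN4 was below the floor. FLRT3, a membrane protein that binds UNC5B and was chosen after its values were seen, was lower by far more, from 8.66 to 3.995 and from 7.96 to 4.34 in its 2 probe sets. Its miR-130b values lie below the floor, so the size of the fold is not resolved.

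PLXNC1, the plexin that binds SEMA7A, gave opposite answers by probe set. Probe set 235328_at read 5.52 with the empty vector and 5.81 with miR-130b, a difference of 0.29. Probe set 213241_at read 6.12 and 5.03, which is 2.12-fold lower. Of the remaining probe sets, both below the floor, 206470_at read 4.604 and 3.90 and 206471_s_at read 4.17 and 4.03. The first represents the gene because its mean is slightly higher. When the probe set with the highest value in either array was taken instead, an alternative chosen after the data were seen, PLXNC1 differed by -1.08 and became the second member past 1.5-fold. That made 2 of 48 members lower, against 2.8% of all measured genes. The RNA of the 2 arrays differed in the signal of control probe sets at opposite transcript ends: for ACTB the ratio of 3′ to 5′ signal was 1.95 with the empty vector and 2.41 with miR-130b, and for GAPDH it was 1.37 and 1.52. Whether this has a part in the unequal differences of SLIT2, UNC5B and PLXNC1 was not tested.

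**Figure D2:**
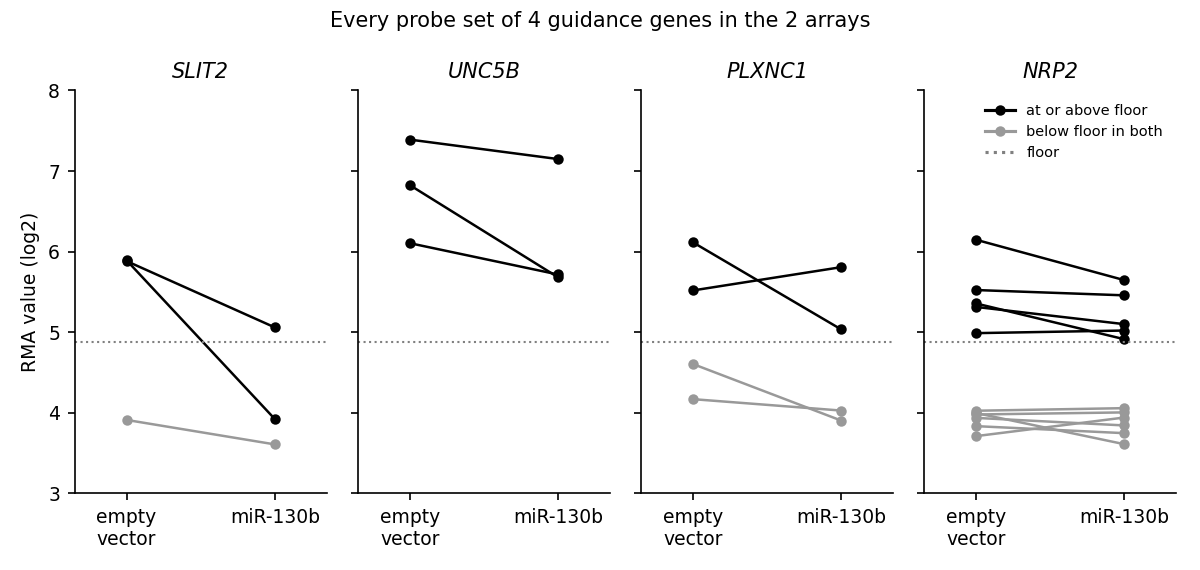
RMA values (log2) of every probe set of SLIT2, UNC5B, PLXNC1 and NRP2 in the empty vector and miR-130b arrays, each line joining 1 probe set, in grey where it is below the floor of 4.88 (dotted) in both arrays. Every SLIT2 and UNC5B line slopes down, while the measured PLXNC1 lines cross.

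Counted over probe sets, 4 of the 77 measured member probe sets were at least 1.5-fold lower, or 5.19%, against 2.83% of 23352 measured probe sets. They belong to SLIT2, UNC5B and PLXNC1, and probe sets of 1 gene are not independent. The SLIT2 probe set 230130_at counted as measured through the empty vector array alone, so nothing is read from the share. None was at least 1.5-fold higher. Among the 20 members with several measured probe sets, 12 had differences of both signs, 7 had a single sign throughout and SEMA4F had differences of 0 or above. For those 12 genes the sign of the difference depends on the probe set read. The same count was not made over all genes, so it is not a trait of the members.

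The neuropilins are co-receptors of the secreted semaphorins and of vascular endothelial growth factor. NRP2 had 5 measured probe sets: the brightest read 6.15 and 5.65, 225566_at read 5.36 and 4.91, 223510_at read 5.31 and 5.10, 219367_s_at read 5.52 and 5.46, and 1555468_at read 4.99 and 5.02. The first of these differed by -0.50 and the last by 0.03, and none reached 1.5-fold. NRP2 differed by -0.24 in the mean of its measured probe sets and by -0.21 without those ending in _s_at. NRP1 read 8.04 and 7.86 in one measured probe set and 6.72 and 6.57 in the other, differences inside the pooled SD. Of the secreted class 3 semaphorins, SEMA3F read 8.10 and 8.13 and SEMA3B 4.93 in both arrays, and SEMA3A, SEMA3C, SEMA3D, SEMA3E and SEMA3G were below the floor.

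The plexins other than PLXNC1 showed small differences of both signs. PLXNA1, a signalling partner of neuropilins, read 8.25 and 7.94 in its brightest probe set and 7.22 and 7.27 in a second. PLXNB2, a receptor of class 4 semaphorins, read 8.96 and 8.68, a difference of -0.27. PLXNB1, the receptor of SEMA4D, read 7.93 and 7.73 in its brightest probe set but 5.26 and 5.51 in its other. PLXNA3 differed by 0.26, PLXND1 by 0.14 and PLXNA2 by -0.12. With the neuropilins included, the 9 measured genes of this family had a median of -0.18, the lowest of the families with more than 3 measured genes. Its interval over genes ran from -0.31 to 0.26 and holds no replicate error. PLXNA4 and PLXNB3 were below the floor.

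Membrane-bound semaphorins were measured except for SEMA6D. All 6 class 4 genes were above the floor, and 5 of them had a positive difference. SEMA4D, known for its action on PLXNB1, read 5.77 and 5.99, SEMA4B read 8.55 and 8.68 and SEMA4G read 9.09 and 9.13. SEMA4C, a ligand of PLXNB2, was the exception, with 7.92 and 7.71 in one probe set and 7.18 and 6.95 in the other, and its receptor was also lower. SEMA6A, which binds A-type plexins, was slightly higher in each of its 4 measured probe sets, by 0.11 to 0.18. SEMA6B, SEMA6C, SEMA5A, SEMA5B and SEMA7A differed by -0.15 to -0.01. Over the 14 measured semaphorins the differences ran from -0.21 to 0.22, with a median of 0.01.

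Ephrins and Eph receptors held no gene near 1.5-fold. Among A-type ephrins, which are anchored by a lipid, EFNA1 read 7.21 and 7.40, EFNA4 read 6.82 and 6.95, EFNA3 read 7.73 and 7.72 and EFNA2 read 6.98 and 6.72. EFNA5 had 3 measured probe sets, which differed by 0.08, 0.29 and -0.13. The transmembrane ephrin EFNB1 was the ligand with the highest difference, at 5.85 and 6.24, which is 1.31-fold higher and rests on 1 probe set. EFNB3 differed by -0.09 and EFNB2 was below the floor. EPHA2, the Eph receptor of many epithelial tumours and a receptor of EFNA1, read 8.19 and 7.94. The opposite signs of EFNA1 and EPHA2 each rest on 1 probe set and are about the size of the pooled SD. EPHB4 read 7.71 and 7.75, EPHB3 read 6.59 and 6.57 and EPHA4 read 5.62 and 5.52. The 7 measured Eph receptors ranged from -0.25 to 0.12. EPHA1, EPHA3, EPHA5, EPHA6, EPHA7 and EPHB6 were not measured.

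In total 8 ligands and 14 receptors had no probe set at the floor. Their values ran from 2.93 to 4.32 for ligands and from 3.02 to 4.75 for receptors, where RMA values hold mostly background and a difference cannot be read as a change. The widest of these, 0.52 for UNC5C from 4.05 to 4.57 and 0.40 for EFNB2 from 3.52 to 3.93, are given for completeness. Among genes that share only the name, UNC5CL had the highest difference of all 73 symbols, 0.52 from 5.94 to 6.46 in 1 probe set, UNC50 differed by 0.09 and EPHA5-AS1 by -0.07.

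A few genes that act inside the cell for these receptors were lower with miR-130b. They come from a list of 70 partners, regulators and processing enzymes of guidance receptors, not all of them intracellular. Of these, 62 were measured, 5 were at least 1.5-fold lower (8.06%, beside the 2.68% of all measured genes) and 0 were at least 1.5-fold higher. The list's median of 0.02 was near the 0.03 of all measured genes. The list was drawn up with earlier results of these arrays known, and DPYSL3 counted as measured through the empty vector array alone, so nothing is read from the share. MICAL2, a monooxygenase that disassembles actin filaments and a relative of the plexin partner MICAL1, was 8.45-fold lower, from 8.86 to 5.78, and its other measured probe set went from 8.14 to 5.54. DPYSL2, also called CRMP2, mediates the collapse of growth cones by semaphorins and was 3.62-fold lower, from 7.44 to 5.59 in 1 probe set. Its relative DPYSL3 went from 5.81 to 4.69, which is below the floor, so the size of the fold is not resolved. FYN, a kinase that acts for plexin A, netrin and ephrin signalling, went from 6.82 to 5.57 and from 5.50 to 4.51, which is below the floor. Another measured FYN probe set read 5.56 and 5.60. ENAH, an actin regulator of the netrin and ROBO pathways, went from 10.7 to 10.004 where it was brightest, and 3 more probe sets differed by -0.96 to -0.57 but a dim one by 0.26. At the other end TIAM1, an activator of RAC1 that binds EphA receptors, was highest with 8.21 and 8.65.

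**Figure D3:**
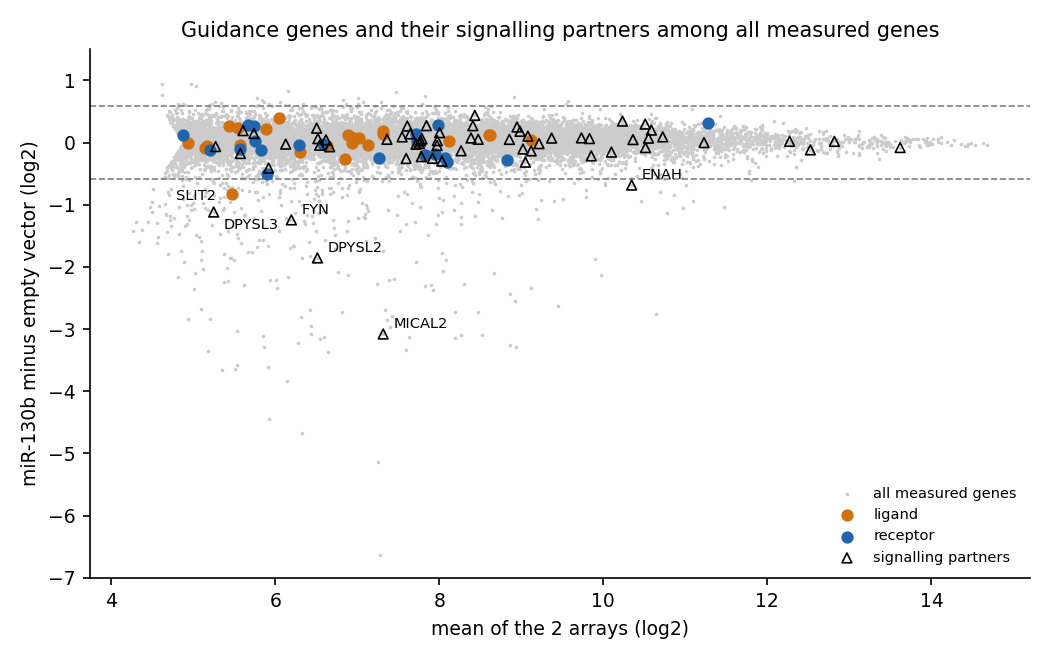
Difference, miR-130b minus empty vector (log2), against the mean of the 2 arrays (log2) for all 13260 measured genes (grey), with guidance ligands (orange) and receptors (blue), and with 1.5-fold as dashed lines. Triangles, labelled signalling partners, are the 62 measured partners, regulators and processing enzymes. Ligands and receptors lie within the dashed lines except SLIT2, while MICAL2, DPYSL2, FYN, DPYSL3 and ENAH lie below them.

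Most measured markers of other cell types were within 1.5-fold in their brightest probe set. Of 9 stromal markers, COL1A2 went from 7.98 to 4.90 while DCN, PDGFRB and THY1 were within 1.5-fold in every measured probe set. COL1A1 read 7.20 and 7.12 in its brightest probe set, but its 3 other measured ones differed by -1.68, -0.88 and 0.38. Those with a negative difference ended below the floor. The summed level of the 9 stromal log2 values was 48.2 with the empty vector and 44.4 with miR-130b, and COL1A2 alone differed by -3.08. This sum and those below add log2 values and include markers below the floor in both arrays. These are 4 stromal, 4 neural, 4 endothelial and 3 leukocyte markers, so the sums do not measure abundance. Of the neural markers TUBB3 differed by -0.85, and the sum over 9 was 54.6 and 54.1. Sums over the 8 endothelial markers were 40.2 in both arrays. PECAM1 stood at 8.51 and 8.72, and CDH5, KDR, VWF and EMCN, the last a sialomucin of vessels, were below the floor. Of the 9 liver markers, 3 were at least 1.5-fold lower (33.3%, beside 2.68% of all measured genes) and 0 were higher by as much. TTR went from 9.26 to 5.92, and in their brightest probe sets KRT8 went from 11.5 to 10.4 and ALB from 12.0 to 11.0. The median of this list was -0.51. It was drawn up with earlier results of these arrays known, so nothing is read from the share. The 6 leukocyte markers summed to 33.6 and 33.2. LYZ, which encodes lysozyme, read 9.77 and 9.46 in its brightest probe set but 5.76 and 4.04 in a dimmer one, the last value below the floor. The part of these markers in the values of SLIT2, UNC5B or MICAL2 was not tested, and in RNA from a whole culture fewer cells of a type and less RNA per cell cannot be told apart.

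The RefSeq start regions of SLIT2 and PLXNC1, a ligand and a receptor with a probe set at least 2-fold lower, are shown to give the sequence context of these genes. UNC5B also has such a probe set but no start region among those available, so it is named only. Each region shown runs from 250 bases before to 50 bases after a gene start on the plus strand of GRCh38.p14. Capitals mark matches on either strand to GGGCGG, the GC box, to TATAA, the core of the TATA box, and to TGANTCA, a form of the AP-1 site. SLIT2 has 1 such region (chr4:20251655-20251954), and PLXNC1 has an upstream start (chr12:94148327-94148626) and a downstream start (chr12:94262369-94262668).
SLIT2: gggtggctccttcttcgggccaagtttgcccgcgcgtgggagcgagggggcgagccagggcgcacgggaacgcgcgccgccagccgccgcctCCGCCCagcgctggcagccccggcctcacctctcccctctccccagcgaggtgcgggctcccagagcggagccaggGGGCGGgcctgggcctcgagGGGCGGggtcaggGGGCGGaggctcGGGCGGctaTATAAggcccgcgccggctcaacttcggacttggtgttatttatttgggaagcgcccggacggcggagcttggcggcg
PLXNC1 upstream: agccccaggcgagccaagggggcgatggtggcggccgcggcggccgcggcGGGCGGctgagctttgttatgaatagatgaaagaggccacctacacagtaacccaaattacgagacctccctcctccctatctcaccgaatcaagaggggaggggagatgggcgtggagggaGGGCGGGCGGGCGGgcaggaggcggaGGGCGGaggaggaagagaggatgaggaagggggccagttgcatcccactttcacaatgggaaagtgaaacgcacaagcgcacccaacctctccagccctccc
PLXNC1 downstream: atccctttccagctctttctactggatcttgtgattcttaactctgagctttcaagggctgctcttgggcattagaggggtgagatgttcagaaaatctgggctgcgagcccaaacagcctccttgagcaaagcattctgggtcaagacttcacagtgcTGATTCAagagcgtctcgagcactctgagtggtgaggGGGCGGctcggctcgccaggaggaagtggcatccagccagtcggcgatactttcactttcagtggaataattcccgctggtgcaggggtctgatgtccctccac

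The SLIT2 region holds 5 matches to GGGCGG and 1 to TATAA, which begins 28 bases before the gene start, and it is 74.3% G or C. The upstream PLXNC1 region holds 5 matches to GGGCGG, some overlapping each other, and is 64.0% G or C. The downstream one holds 1 match to GGGCGG and 1 to TGANTCA. No base lies in matches to 2 different motifs. Of all 35116 regions of this length, 45.0% hold GGGCGG, 20.4% hold TATAA and 7.71% hold TGANTCA. Of 95 regions of the 64 members found in the table, 67, 9 and 3 do. These matches describe the letters only.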

How the data were processed

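The deposited table holds log2 expression values of 54675 probe sets on each array. RMA, a method that corrects background, normalises arrays to a shared distribution and summarises probes, is listed by the submitters' processing notes without a version, and no source used here gives its settings. RMA compresses the folds of dim probe sets, and the values carry no detection call. Probe sets were named through the platform annotation given by GEO. Of 54613 probe sets that are not controls, 41091 had 1 symbol, and all 73 member symbols matched the RefSeq gene table by Entrez identifier. The number of arrays, 1 per condition, limits the precision, so there was no test.

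Differences, medians and counts past 1.5-fold were computed over all measured genes with Python 3.11.15, numpy 2.4.6, pandas 2.3.3, scipy 1.17.1 and statsmodels 0.14.6. The computation was tested on simulated data. Alternatives were dropping the floor, raising it to the 75th percentile, averaging measured probe sets, dropping _x_at and _s_at probe sets, loess centring with a span of 0.3 and, added after seeing the data, the probe set with the highest single value and the 6 same-named genes counted as receptors. Every member could be named. Those past 1.5-fold in a measured probe set, and the brightest of each family, were to be given in full, as were up to 4 genes of other lists. FLRT3, PROM1, further list genes and the motifs were chosen after values were seen. The members and lists were chosen with earlier results of these data known.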

Additional observations from a re-analysis of the deposited data

How the results depend on the processing

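With 1 array per condition no sample could be left out. No paired analysis was possible because each condition has 1 array. The count of members at least 1.5-fold lower was 1 of 48, against 2.68% of all measured genes. With the floor at the 75th percentile, which removes SLIT2, it was 0 of 22, against 2.32%. It was 2 of 48 with the mean of measured probe sets (SLIT2 and UNC5B), against 2.6%. The probe set of highest value in either array also gave 2 of 48 (SLIT2 and PLXNC1), against 2.8%. It was 1, SLIT2, under the 3 other alternatives, against 1.91% to 2.81% of all genes under the same settings. The count of ligands was 1, and 0 with the higher floor. The count of receptors was 0, and 1 under each of those alternative choices of probe set. The count of members at least 1.5-fold higher was 0 throughout. The ligand median ran from -0.002 to 0.07 under all alternatives and the receptor median from -0.19 to 0.02. Each lay inside the interval of its main value, which describes scatter between genes only. Counting the 6 same-named genes as receptors gave a receptor median of -0.03 over 23 genes. Many values for single genes could not move. Averaging or choosing between measured probe sets returns the same value for the 28 members with 1 measured probe set. Dropping or raising the floor left the value of every gene kept as it was. With this limit, of 252 values for single genes under the alternatives, 242 moved by less than the pooled SD of 0.202 and 10 moved by more, in NRP2, PLXNA1, PLXNB1, PLXNC1, SLIT2 and UNC5B. The sign changed among these for PLXNC1, from 0.29 to -0.40 with the mean and -1.08 with the highest single value, for PLXNB1, from -0.20 to 0.02 with the mean, and for PLXNA1, from -0.31 to 0.05 without the suffixed probe sets. Of the 73 members, 25 stood below the floor in both conditions, and 22 of 48 measured members reached the 75th percentile. Whether signal level has a part in the values that moved was not tested.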
